A study of Arabidopsis thaliana with 33 samples.

Results

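This account describes what loss of ARP6 did to nuclear RNA in Arabidopsis thaliana shoots that already lacked BRM. The comparison set the double mutant arp6-1;brm-1, called arp6;brm in the labels and the double mutant here, against the single mutant brm-1. For each gene, the log2 fold change of brm against wild type (WT) was subtracted from that of the double mutant against WT, so that WT drops out of the difference. A positive difference means more RNA in the double mutant than in brm, and a difference of 1 is a 2-fold gap. Genes were kept where the average expression was at least 1 on the log2 CPM scale (reads of a gene relative to the sequencing output of its library) in both comparisons, which left 13217 of the 21569 genes listed in both and of the 23044 genes listed in at least 1 RNA table of the series.

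RNA-seq was made from 3 biological replicates each of WT, arp6-1, brm-1 and the double mutant. The plants grew in soil under 16 h of light and 8 h of dark and were taken as shoots with 4 to 5 leaves. Each library started from 100 ng of nuclear RNA and was read as 36-nt pairs. The labels give no treatment, and brm and the double mutant carry the same brm-1 allele. The mutations are carried by the whole plant and throughout development, not by chosen cells. In such bulk tissue, fewer cells of a type and less RNA per cell cannot be told apart.

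ARP6 is an actin-related subunit of the SWR1 complex, which exchanges histone H2A for the variant H2A.Z in nucleosomes. BRM (BRAHMA) belongs to the SWI/SNF remodellers and is their ATP-consuming motor, which moves or evicts nucleosomes. H2A.Z is found around the start of many plant genes and across the bodies of genes that respond to the environment, and arp6 plants flower early. The series asked, by its title, where the histone variant and the remodeller work together and where they oppose each other, and the double mutant over brm covers the case in which BRM is already gone.

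The deposited RNA tables hold 1 fold change per gene and comparison, with no value per library. The replicate spread of the difference is therefore unknown, the depth per library is unknown, and no test of the difference was possible. What can be tested is each mutant against WT, and a gene is called higher or lower in a mutant where the authors' edgeR adjusted p was under 0.05. Group levels in log2 CPM were worked out from the deposited average and fold change. The WT level worked out from the double-mutant table and from the brm table differed by a median of -0.04, with an SD of 0.0041 across 13217 genes, so WT cancelled closely.

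ARP6 and BRM checked the labels. For ARP6 the worked-out level was 3.24 log2 CPM in WT, -2.49 in arp6, 3.5 in brm and -2.36 in the double mutant. Both genotypes labelled arp6 thus stood far below both that carry ARP6, and the difference between the double mutant and brm was -5.86. For BRM the level was 5.66 in WT, 5.65 in arp6, 0.03 in brm and -3.21 in the double mutant. BRM reads were low in both brm genotypes, and the residue was lower in the double mutant by a difference of -3.23 although both are labelled with the same allele.

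Markers of leaf tissue were present. RBCS1A, LHCB1.3, LHCB2.1 and RCA, which encode the small Rubisco subunit, light-harvesting proteins and Rubisco activase, all passed the expression minimum, with a median difference of 0.50 and none past 2-fold. The root, flower and seed marker lists had no member above the minimum. Below it, 2 of 6 flower markers were at least 2-fold higher and 0 lower, and 2 of 2 seed markers were lower. The flower marker SEP3 was at 2.18 log2 CPM in the double mutant and -0.28 in brm. Of 9 shoot meristem and boundary markers 1 passed, KNAT1, with a difference of 0.19. Of 7 below the minimum 3 were at least 2-fold higher and 0 lower. Among all 8352 genes below it, 1966 were higher and 1897 lower.

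Of the 13217 genes, 1480 (11.2%) stood at least 2-fold apart, with 505 (3.82%) higher and 975 (7.38%) lower in the double mutant than in brm. The median difference over all genes was -0.0026, the quartiles were -0.39 and 0.36, and the range ran from -9.34 to 4.14 without 7 genes at the lowest fitted level in the double mutant. The tail of lower genes was the longer one: 216 genes were at least 4-fold lower and 35 at least 4-fold higher, and beyond 8-fold the counts were 71 and 4. At the threshold, BIOF (1.001) and the unnamed locus AT3G47510 (-1.001) were just inside, and NAKR3 (0.999) and BGLU8 (-0.999) just outside. Across the 5 chromosomes, between 3.15% and 4.2% of genes were higher and between 7.19% and 7.69% lower.

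**Figure D1:**
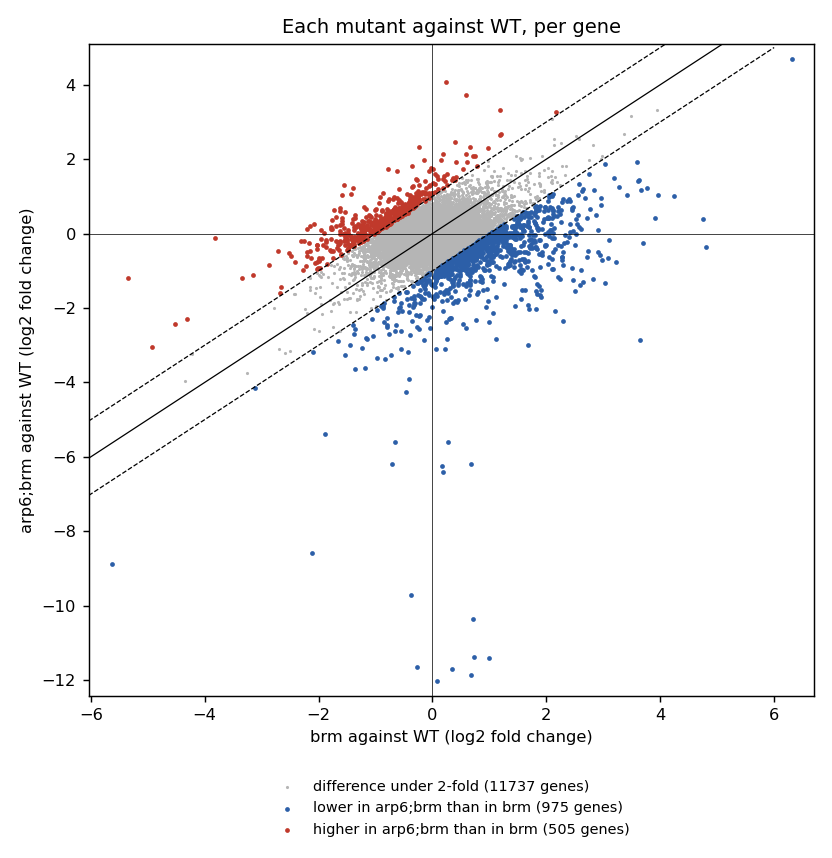
Log2 fold change of brm against WT (x axis) and of the double mutant against WT (y axis) for each of the 13217 genes. The solid diagonal marks equal values and the dashed lines a 2-fold gap. The 975 genes in blue lie below the lower dashed line, mostly to the right of 0, and the 505 in red lie above the upper one. Both axes share the WT libraries.

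Genes called in neither mutant were taken as a low reference. They are chosen by the same fold changes that form the difference, which keeps their differences small by construction. Of 9226 genes called in neither table, 256 (2.77%) were past 2-fold, and the SD of their difference was 0.44. Of 3991 genes called in at least 1 table, 1224 (30.7%) were past 2-fold. Among uncalled genes the share was 6.2% at an average log2 CPM of 1 to 2, then 3.28% at 2 to 3, 1.15% at 3 to 4, 0.314% at 4 to 5 and 0.648% above that. A well-expressed gene with a given gap is called more readily, so these shares also follow the power of the authors' test and are no measure of noise alone.

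**Figure D2:**
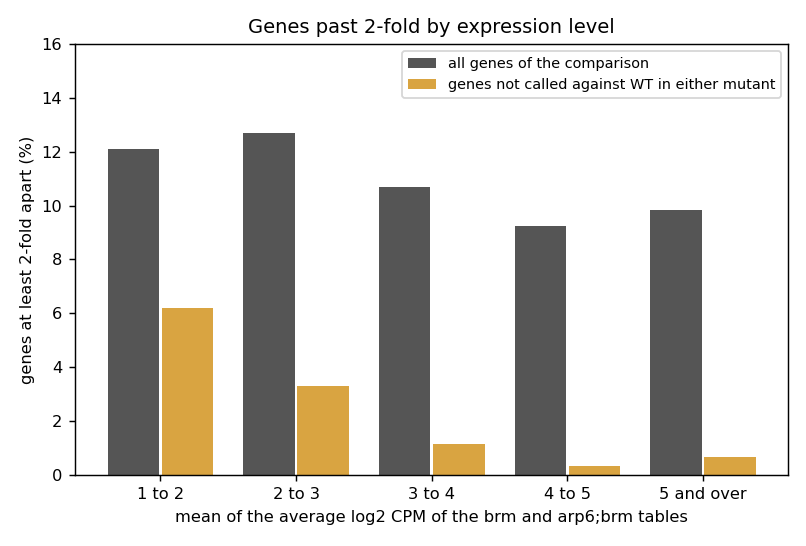
Percent of genes at least 2-fold apart between the double mutant and brm (y axis), by the mean of the average log2 CPM in both tables (x axis). Dark bars are all genes and light bars are genes called against WT in neither mutant. Light bars drop from 6.2% to below 1% while the dark bars stay between 9.23% and 12.7%.

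Most of the lower genes were called higher than WT in brm. Of the 975, the authors' deposited tables call 557 (57.1%) higher in brm, compared with 9.84% of all genes. Of the 557, 421 were called neither way in the double mutant. Another 110 were called higher in brm and lower in the double mutant, with a median log2 fold change of 1.14 against WT in brm and -1.01 in the double mutant. A further 252 were called lower in the double mutant and not called in brm. Of the 505 higher genes, 233 (46.1%) were called lower in brm, compared with 9% of all genes. Of the 233, 202 were called neither way in the double mutant. Another 150 were called higher in the double mutant and not called in brm. In the double mutant 7.21% of all genes were called higher and 9.72% lower. Genes chosen by the difference lean towards these calls by construction, and how much of these shares comes from that was not tested.

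Read from the brm side, 1300 genes of the comparison (9.84%) were called higher in brm and 1190 (9%) lower in the authors' deposited table. Those called higher had a median log2 fold change of 1.04 in brm and 0.17 in the double mutant, and 557 of them (42.8%) were at least 2-fold lower in the double mutant, against 3 that were at least 2-fold higher still. In the double mutant 857 of the 1300 (65.9%) lay within 1.5-fold of WT, compared with 80% of all genes, and 253 (19.5%) were still called higher, compared with 7.21% of all genes. Those called lower in brm had medians of -0.88 in brm and -0.33 in the double mutant. Of these, 233 (19.6%) were at least 2-fold higher in the double mutant and 359 (30.2%) were still called lower, compared with 9.72% of all genes. The brm libraries enter both the call in brm and the difference, with opposite sign, so genes picked by the call in brm lean towards the opposite difference by construction, and how much of these shares comes from that was not tested.

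Jasmonate genes had the lowest median difference of the 19 lists described here. The lists were chosen with earlier results of these data known. List counts set beside the share of all genes are therefore descriptive and no independent support. Jasmonate is a lipid-derived hormone of the wound response, and its signal removes JAZ repressors from transcription factors such as MYC2. Of 29 listed genes 18 passed the expression minimum, and all 18 were at least 2-fold lower in the double mutant than in brm, where 7.38% of all genes were. The median difference was -2.55, with a range from -4.23 to -1.29, compared with -0.0026 over all genes. The authors' deposited tables call 16 of the 18 higher in brm (9.84% of all genes) and none lower (9%). In the double mutant 1 was called higher (7.21% of all genes) and 6 lower (9.72%). The brm libraries enter both the call in brm and the difference, with opposite sign, so the call and the difference are not independent. The 11 other listed genes were below the minimum, and all 11 were at least 2-fold lower, where 22.7% of all 8352 genes below the minimum were.

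Of 8 listed synthesis genes 7 passed the minimum, and all 7 were called higher in brm, as were 9.84% of all genes. OPR3, the peroxisomal reductase of jasmonate synthesis, had a level of 4.51 log2 CPM in WT, 4.47 in arp6, 7.24 in brm and 4.05 in the double mutant. It was high in brm alone, and the difference was -3.19; the authors' deposited table gives an adjusted p of 1.04e-29 for brm against WT and 0.0622 for the double mutant. AOS, which makes the allene oxide precursor, had levels of 5.85, 5.37, 7.52 and 4.95 in the same order of genotypes. The lipoxygenase genes LOX2, LOX3 and LOX4, which act at the first step, had differences of -1.36, -2.50 and -2.99. LOX3 was the one jasmonate gene still called higher in the double mutant, at 1.16 on the log2 scale against WT in the authors' deposited table (adjusted p = 9.68e-06).

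AOC1 and AOC2 encode allene oxide cyclases and are near-identical neighbours, so reads may be divided unevenly between them. AOC1 had levels of 2.44 log2 CPM in WT, 2.38 in arp6, 6.34 in brm and 2.85 in the double mutant, a difference of -3.5. AOC2 had levels of 6.66, 5.02, 7.72 and 4.54. For AOC2 the double mutant was thus below WT as well as below brm, and the authors' deposited tables call it lower in arp6 (adjusted p = 1.19e-11) and in the double mutant (adjusted p = 1.21e-23).

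All 7 JAZ repressor genes above the minimum were called higher in brm (9.84% of all genes), and their differences ran from -4.23 to -1.29. JAZ9, listed as TIFY7 in RefSeq, had levels of 3.87 log2 CPM in WT, 3.11 in arp6, 6.03 in brm and 1.80 in the double mutant. It went from above WT in brm to below WT in the double mutant, and the authors' deposited tables give 2.16 (adjusted p = 1.78e-14) for brm and -2.07 (adjusted p = 3.84e-12) for the double mutant on the log2 scale against WT. JAZ5 had levels of 1.68, 2.56, 4.49 and 0.45 and a difference of -4.04. JAZ1, a widely studied repressor of MYC2, had levels of 4.65, 5.75, 6.68 and 3.84. The gene of MYC2 itself, the transcription factor that JAZ proteins bind, had a difference of -1.85.

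Output genes of the pathway were not all high in brm. VSP1 and VSP2, vegetative storage proteins that respond to jasmonate and wounding, were not called in brm, where the authors' deposited table lists -0.56 and -0.79 on the log2 scale. In the double mutant they were called lower, at -3.10 and -2.51, and in arp6 too, at -1.36 and -1.95, all in the authors' deposited tables. CORI3, a jasmonate-induced cystine lyase, had a difference of -1.48. Below the minimum, levels in brm were still raised for TAT3, an aminotransferase gene, at 5.96 log2 CPM against -0.39 in WT and -1.47 in the double mutant. CYP82G1 and TPS04, which make herbivore-induced volatile terpenes, reached 4.02 and 4.43 in brm from -4.88 and -1.52 in WT. In the double mutant CYP82G1 was at -3.30 and TPS04 at the lowest fitted value, for which no fold is given.

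**Figure D3:**
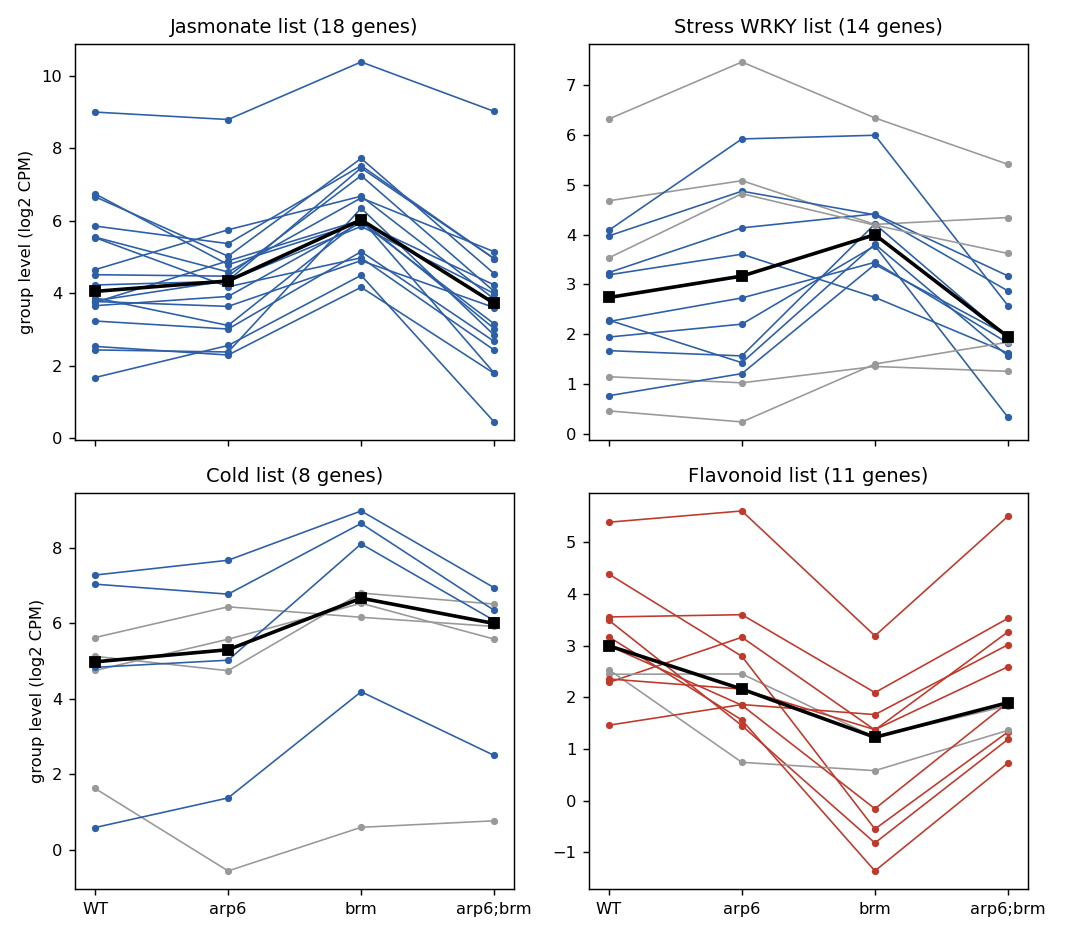
Worked-out level in log2 CPM (y axis) in WT, arp6, brm and the double mutant (x axis) for the list members above the expression minimum. Each thin line is a gene, blue where at least 2-fold lower and red where at least 2-fold higher in the double mutant than in brm, and the black line is the median. No error is shown because the tables hold no value per library; in the jasmonate panel each line drops from brm to the double mutant.

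WRKY factors of the stress response were also lower in the double mutant than in brm, or within 2-fold. They are transcription factors of defence and abiotic stress, and 14 of 18 listed passed the minimum, with 9 at least 2-fold lower (7.38% of all genes), 0 higher (3.82%) and a median difference of -1.34. By the authors' deposited tables, 7 of the 14 were called higher in brm (9.84% of all genes) and 4 higher in arp6 (3.41%). In the double mutant 4 were called lower (9.72% of all genes) and 2, WRKY26 and WRKY60, higher (7.21%). WRKY18, a modulator of basal defence, had levels of 4.09 log2 CPM in WT, 5.92 in arp6, 5.99 in brm and 2.57 in the double mutant. It was above WT in each single mutant and below WT when both were combined, and the authors' deposited tables give adjusted p = 5.29e-10 for arp6, 9.72e-10 for brm and 5.41e-05 for the double mutant. WRKY48 had levels of 1.94, 2.2, 3.77 and 0.33 and a difference of -3.44, and WRKY6 and WRKY25 had differences of -2.25 and -2.29.

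WRKY40 and WRKY53 were called higher in arp6, and of this pair only WRKY53 was also called higher in brm. Their differences in the brm background were -1.53 and -1.24. WRKY33, which controls camalexin synthesis, was chosen after its values were seen: the authors' deposited tables list it at 1.15 in arp6, 0.02 in brm and -0.91 in the double mutant, as log2 fold change against WT. Its difference of -0.93 lay under the 2-fold threshold.

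The other stress lists were less uniform. Of 8 stress ERF factors above the minimum 2 were at least 2-fold lower and 0 higher, and the median difference was -0.28, where 7.38% of all genes were lower and 3.82% higher. ERF2 had levels of 2.43 log2 CPM in WT, 4.32 in arp6, 4.89 in brm and 3.12 in the double mutant, and ERF4, a repressor of ethylene responses, had a difference of -1.37. Of 11 ERF genes below the minimum 8 were at least 2-fold lower, where 22.7% of all genes below it were. Of 10 salicylic acid genes 3 were lower and 1 higher, with a median of -0.86, and 7 were called higher in brm, as were 9.84% of all genes.

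In the salicylic acid list, PAD4 and SAG101, lipase-like partners of EDS1 in immunity, had differences of -1.08 and -1.15. WRKY70, which acts in salicylic acid signalling, had a difference of -1.14. PR2, a beta-glucanase of the defence response named BGL2 in RefSeq, went the other way. Its level was 1.25 log2 CPM in WT, 3.44 in arp6, 3.42 in brm and 4.52 in the double mutant, a difference of 1.1, and it was called higher in all 3 mutants in the authors' deposited tables.

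Some cold-response genes were lower in the double mutant than in brm. Of 8 above the minimum 4 were at least 2-fold lower (7.38% of all genes) and 0 higher (3.82%), with a median of -1.32. The others lay between -0.95 and 0.17. The authors' deposited tables call 6 higher in brm (9.84% of all genes). In the double mutant 4 were still called higher (7.21% of all genes) and 1 lower (9.72%). RD29A, a desiccation and cold protein listed as LTI78, had levels of 4.84 log2 CPM in WT, 5.03 in arp6, 8.11 in brm and 6.08 in the double mutant. Its difference was -2.03, and the authors' deposited table still gives an adjusted p of 1.75e-08 for the double mutant against WT.

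The dehydrin genes COR47 and ERD10, which are neighbours on chromosome 1, had differences of -2.03 and -2.30. COR47 had levels of 7.28 log2 CPM in WT, 7.67 in arp6, 8.98 in brm and 6.95 in the double mutant, and ERD10 had 7.04, 6.78, 8.65 and 6.35. Both were high in brm alone. KIN1 and KIN2 are near-identical neighbours, and their values, -1.69 and -0.29, may carry reads of each other; KIN2 was chosen after its values were seen. CBF2, 1 of the factors that switch on cold genes, had a difference of 0.17 and was not called in brm.

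Flavonoid and anthocyanin genes lay on the other side, low in brm and higher in the double mutant. These enzymes make the UV screens and red pigments of the shoot. Of 18 listed genes 11 passed the minimum, and 9 of these were at least 2-fold higher in the double mutant than in brm and 0 lower, where 3.82% of all genes were higher. The median difference was 1.88, with a range from 0.61 to 2.31. The authors' deposited tables call 9 of the 11 lower in brm (9% of all genes). In the double mutant 2 were called higher (7.21% of all genes) and 5 lower (9.72%). As for the jasmonate genes, the brm libraries enter both the call in brm and the difference, with opposite sign. Of 7 genes below the minimum 5 were at least 2-fold higher and none was lower, where 1966 of all 8352 genes below it were higher.

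Early and late steps of the pathway ended at different levels. CHS, chalcone synthase of the first committed step and named TT4 in RefSeq, had levels of 5.39 log2 CPM in WT, 5.60 in arp6, 3.19 in brm and 5.50 in the double mutant. It was low in brm alone, and the difference was 2.31, for which the authors' deposited tables give adjusted p = 9.53e-10 in brm and 0.829 in the double mutant. CHI, the isomerase of the next step, had a difference of 1.90, FLS1, the flavonol synthase, 1.44, and CHIL 1.22.

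On the anthocyanin branch the double mutant stood between brm and WT. DFR, dihydroflavonol reductase, had levels of 4.38 log2 CPM in WT, 2.79 in arp6, -0.55 in brm and 1.33 in the double mutant. LDOX, the next enzyme, had levels of 3.49, 1.45, -0.82 and 1.19. GSTF12, a glutathione transferase needed to bring the pigment to the vacuole, had levels of 3.17, 1.56, -1.36 and 0.73. For all 3 genes brm was lowest and both arp6 genotypes were below WT, and the differences were 1.88, 2.00 and 2.09. AT4G14090 had a difference of 2.05.

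Among the regulators, MYB111, an activator of flavonol genes, was not low in brm. Its level was 1.46 log2 CPM in WT, 1.86 in arp6, 1.66 in brm and 3.02 in the double mutant, and it was called higher in the double mutant with an adjusted p of 4.31e-05 in the authors' deposited table. PAP1, the MYB activator of anthocyanin genes, had a difference of 0.78, under the 2-fold threshold, and was called lower in all 3 mutants in the authors' deposited tables. PAP1 was chosen after its values were seen.

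**Figure D4:**
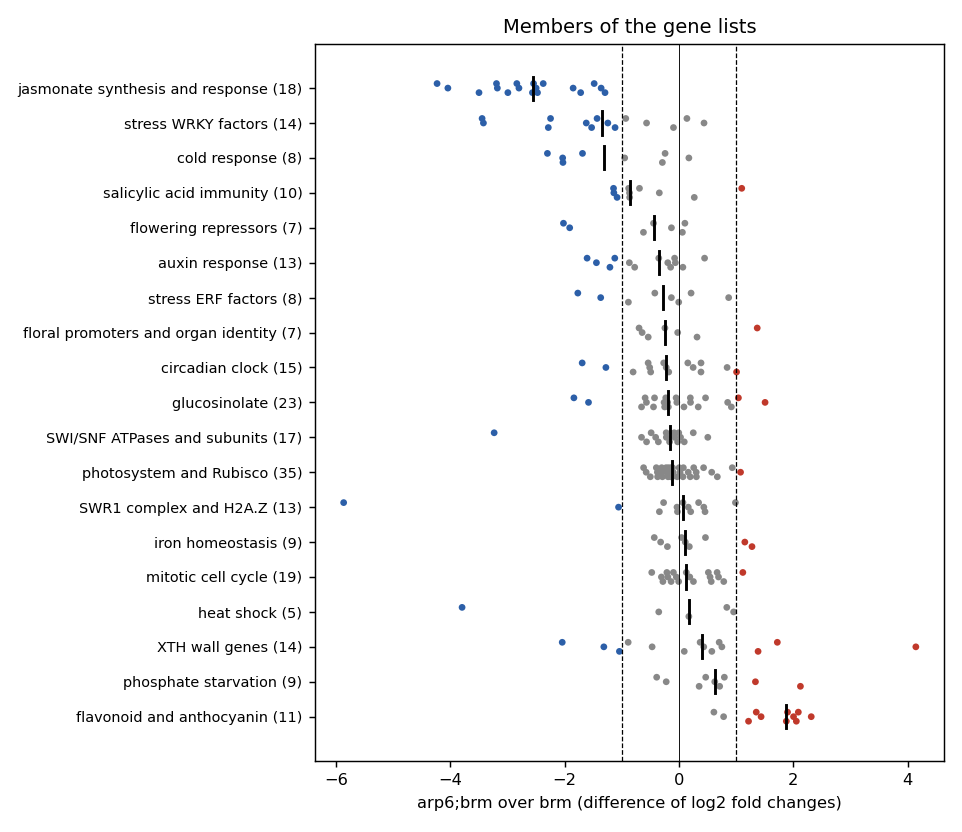
Difference between the double mutant and brm in log2 units (x axis) for each member of 19 gene lists above the expression minimum, with the number of members in brackets. Black bars are list medians, dashed lines mark 2-fold, and colours mark members past it. The jasmonate list lies wholly left of the lower line, with a median of -2.55, and the flavonoid list lies right of 0, with a median of 1.88.

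Cell wall genes of the XTH family, whose products cut and rejoin xyloglucan chains, went both ways. Of 14 above the minimum 3 were at least 2-fold higher (3.82% of all genes) and 3 lower (7.38%). Of 7 below the minimum 0 were higher and 5 lower, where 1966 and 1897 of all 8352 genes below it were. XTH31 had the largest positive difference of all 13217 genes: its level was 4.29 log2 CPM in WT, 2.80 in arp6, -1.06 in brm and 3.09 in the double mutant, a difference of 4.14. XTH7 and XTH6 followed with 1.72 and 1.38, and the authors' deposited table calls all 3 lower in brm (9% of all genes). XTH24 had levels of 4.15, 4.95, 6.70 and 4.66 and a difference of -2.04. TCH4 and XTH17 were lower by differences of -1.04 and -1.31 and were called lower than WT in the double mutant.

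Auxin-response genes had 0 members higher (3.82% of all genes) and 4 of 13 lower (7.38% of all genes), with a median of -0.35. IAA2, an Aux/IAA repressor gene, had levels of 4.07 log2 CPM in WT, 4.33 in arp6, 5.53 in brm and 3.93 in the double mutant. IAA7, IAA19 and GH3.3, the last an enzyme that conjugates auxin, had differences of -1.44, -1.21 and -1.12. Of the 13 members, 6 were called higher in brm (9.84% of all genes) and 1 lower (9%) in the authors' deposited table. All 4 genes at least 2-fold lower were among those called higher.

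Glucosinolate genes, which make the sulfur-rich defence compounds of the cabbage family, were mostly low in both mutants. Of 23 above the minimum 14 were called lower in brm (9% of all genes) and 15 in the double mutant (9.72%). Between the mutants 2 were at least 2-fold higher (3.82% of all genes) and 2 lower (7.38%), the latter near the share of all genes. On the aliphatic side MYB29, a regulator, and IPMI2, an isomerase subunit of chain elongation, had differences of 1.04 and 1.5. The indole enzymes CYP79B3 and CYP83B1 had differences of -1.84 and -1.58. CYP79B3 had levels of 4.78 log2 CPM in WT, 3.86 in arp6, 5.04 in brm and 3.20 in the double mutant.

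Phosphate-starvation genes had a median difference above 0. Of 9 above the minimum 2 were at least 2-fold higher and 0 lower, and the median was 0.63, where 3.82% of all genes were higher. Of 12 genes below the minimum 6 were higher and 1 lower, where 1966 of all 8352 genes below it were higher and 1897 (22.7%) lower. SPX1, a phosphate sensor, had levels of 2.41 log2 CPM in WT, 2.52 in arp6, 0.87 in brm and 3.0 in the double mutant, a difference of 2.12. PAP17, an acid phosphatase, had a difference of 1.34 and was called higher in the double mutant alone of the pair, with an adjusted p of 0.00194 in the authors' deposited table.

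In the iron list 2 of 9 genes were at least 2-fold higher (3.82% of all genes) and 0 lower (7.38%), with a median of 0.11. PYE, a regulator of the iron-deficiency response, and NAS4, which makes the iron chelator nicotianamine, had differences of 1.15 and 1.28. The 3 ferritin genes, which store iron, had differences between -0.32 and 0.11. In the authors' deposited tables all 3 were called lower than WT in brm (9% of all genes) and in the double mutant (9.72%). Of 7 iron genes below the minimum 4 were at least 2-fold higher and 0 lower, where 1966 and 1897 of all 8352 genes below it were. Among the 7, AT1G47400 and AT1G47395, which have no RefSeq symbol, had differences of 2.93 and 2.2 and were called higher in the double mutant.

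Among flowering repressors 2 of 7 were at least 2-fold lower (7.38% of all genes) and 0 higher (3.82%). The 2 listed below the minimum, MAF4 and MAF5 of the FLC clade, were lower too, with differences of -3.25 and -4.69. Of all 8352 genes below the minimum 22.7% were lower. Neither MAF4 nor MAF5 was called in brm or in the double mutant. TEM1 and TEM2, the TEMPRANILLO repressors of the florigen gene FT, had differences of -2.02 and -1.91. TEM1 had levels of 4.71 log2 CPM in WT, 4.58 in arp6, 5.56 in brm and 3.54 in the double mutant. TEM2, named RAV2 in RefSeq, had levels of 3.83, 3.61, 3.54 and 1.63, so it was low in the double mutant alone. FLC, the central repressor removed by vernalization and chosen here after its values were seen, had levels of -1.26, -1.38, 2.68 and 2.06. In the authors' deposited tables FLC was called higher in brm (adjusted p = 6.19e-16) and in the double mutant (adjusted p = 1.56e-13), and its difference of -0.62 was under the threshold.

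Of 7 floral promoters above the minimum 1 was higher (3.82% of all genes) and 0 lower (7.38%). The higher gene was SPL9, a target of miR156 in phase change, with a difference of 1.37. Another 7 of 15 below the minimum were higher and 2 lower, where 1966 and 1897 of all 8352 genes below it were. Among these SEP3, a floral organ identity gene, had levels of -0.81 log2 CPM in WT, 3.15 in arp6, -0.28 in brm and 2.18 in the double mutant. SEP3 was thus high in both genotypes without ARP6, and it was called higher in each, and the authors' deposited tables give adjusted p = 1.57e-29 for arp6 and 1.94e-09 for the double mutant.

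The heat-shock list had 5 members above the minimum, of which 1 was lower (7.38% of all genes) and 0 higher (3.82%). That gene was ROF2, an FKBP-type isomerase, with levels of 2.30 log2 CPM in WT, -4.23 in arp6, 1.84 in brm and -1.96 in the double mutant. It was low in both genotypes without ARP6. Of 16 list members below the minimum 9 were at least 2-fold higher and 1 lower, where 1966 of all 8352 genes below it were higher and 1897 lower.

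In the clock list 1 of 15 genes was higher (3.82% of all genes) and 2 lower (7.38%). COR27, a cold- and light-regulated clock gene, had levels of 4.12 log2 CPM in WT, 5.10 in arp6, 5.42 in brm and 4.14 in the double mutant. AT4G33980 had a difference of -1.69, and LNK1, a co-activator of evening genes, 1.01. Of 5 clock genes below the minimum 2 were at least 2-fold higher and 0 lower, where 1966 and 1897 of all 8352 genes below it were. Among the 5, CCA1, a morning clock factor, had a difference of 2.45. It was called lower in brm and in arp6 in the authors' deposited tables.

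Photosynthesis, cell division and chromatin lists had medians within 0.17 of 0. All 35 photosystem and Rubisco genes passed the minimum, with a median of -0.12. The 1 gene past 2-fold was PSBS, a protein of photoprotection, at 1.08, where 3.82% of all genes were higher and 7.38% lower. Of 19 mitotic genes 1 was higher (3.82% of all genes), CYCB1;4, a mitotic cyclin, at 1.12, and the median was 0.13. Of 13 genes of SWR1 and H2A.Z, ARP6 and SWC2, another SWR1 subunit, were lower (7.38% of all genes). SWC2 had a difference of -1.06 with no call in either mutant. SWC6, a further subunit named SEF in RefSeq and below the minimum, had a difference of -2.14 and was called lower in the double mutant (adjusted p = 0.000975 in the authors' deposited table). Of 17 SWI/SNF genes BRM alone was past 2-fold, as were 11.2% of all genes.

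Values for loss of ARP6 with BRM present can be set beside those without it. With BRM present, arp6 against WT, 451 of the 13217 genes (3.41%) were called higher and 518 (3.92%) lower in the authors' deposited table. In the brm background the 451 had a median difference of -0.20, with 55 (12.2%) at least 2-fold higher and 111 (24.6%) at least 2-fold lower. The 518 had a median of -0.40, with 126 (24.3%) lower and 26 (5.02%) higher. Of the 12248 genes not called in arp6, 3.46% were higher and 6.03% lower. By size alone, among 13098 genes at or above the minimum in all 3 tables, 255 (1.95%) were at least 2-fold higher and 339 (2.59%) at least 2-fold lower in arp6. Over brm 3.82% of the 13098 were higher and 7.34% lower. Of the 255, 41 were higher and 73 lower over brm, and of the 339, 119 were lower and 22 higher. The arp6 libraries enter neither term of the difference, but whether the effect of ARP6 loss differs between the backgrounds was not tested, since that needs values per library.

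The 111 genes higher in arp6 and lower in the double mutant than in brm were mostly high in brm too. The authors' deposited tables call 78 of them higher in brm (9.84% of all genes), and 41 lower in the double mutant against WT (9.72%). Choosing genes by a low difference favours high values in brm and low values in the double mutant by construction. The calls in arp6 and in brm also share the WT libraries. How much of these counts comes from that was not tested. The median log2 fold changes of the 111 genes were 1.05 in arp6, 1.2 in brm and -0.50 in the double mutant. WRKY18, JAZ1, LOX4, ERF2, COR27, XTH24, WRKY40 and WRKY53 were among them. The 126 genes lower in both settings had medians of -1.5 in arp6, 0.16 in brm and -1.73 in the double mutant, and included VSP1, VSP2, AOC2, JAZ9 and CORI3.

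**Figure D5:**
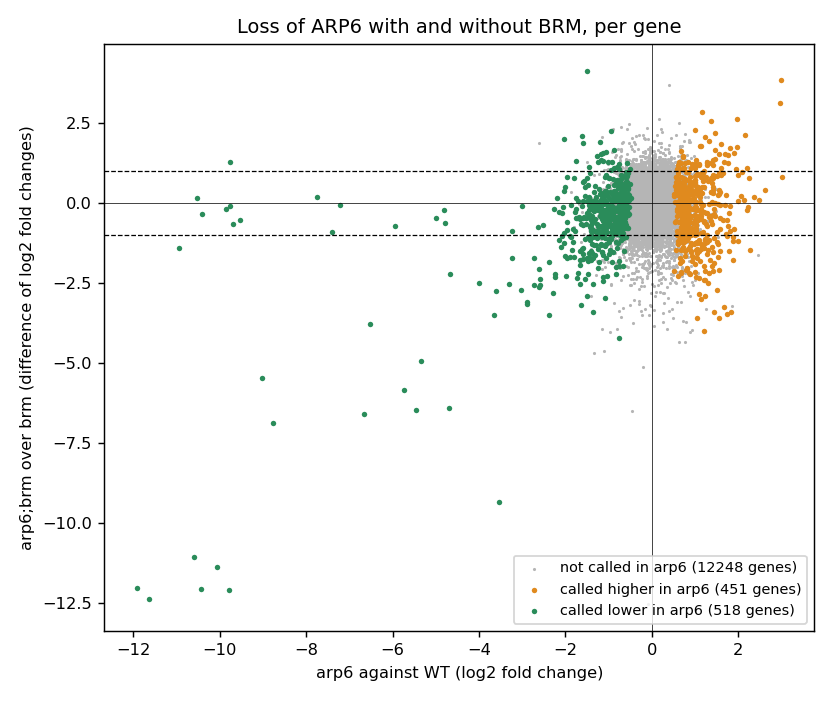
Log2 fold change of arp6 against WT (x axis) and difference between the double mutant and brm (y axis) for each of the 13217 genes. Colours mark genes called in arp6 and dashed lines mark 2-fold. Of the 451 orange genes, called higher in arp6, more lie below the lower dashed line (111) than above the upper one (55).

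Genes past 2-fold were called in arp6 in larger shares than all genes, though most were not called there. Of the 505 higher genes 424 (84%) and of the 975 lower genes 738 (75.7%) were not called in arp6, compared with 92.7% of all genes, and 69.9% and 59.2% lay within 1.5-fold of WT in arp6, compared with 85.2% of all genes. The 19 lists held 23 of the 505 and 53 of the 975, so most genes past 2-fold belong to none of them.

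The 12 largest positive differences among genes called in brm or the double mutant included several loci without a name. AT2G35750 had levels of 4.62 log2 CPM in WT, 7.62 in arp6, 4.85 in brm and 8.69 in the double mutant, and AT2G42170 had 1.62, 4.59, 2.2 and 5.33. Both were high in each genotype without ARP6, with differences of 3.84 and 3.13. AT1G28610 and AT1G65150 were called lower in brm and higher in arp6 and in the double mutant, with differences of 2.86 and 2.64.

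DOGT1, a glucosyltransferase of brassinosteroids and fungal toxins, had levels of 2.21 log2 CPM in WT, 2.61 in arp6, -1.61 in brm and 2.09 in the double mutant. IAGLU, which conjugates auxin to glucose, had a difference of 2.49 and was called lower in brm and higher in the double mutant. The cytochrome P450 gene CYP705A19 had a difference of 2.50, and AT1G20823, AT1G22550, AT1G73600 and AT3G52740 had differences between 2.33 and 2.62. Of the 12 genes with the largest positive differences, 7 were called lower in brm (9% of all genes) and 5 higher in arp6 (3.41%). The difference subtracts the brm value, so this choice favours genes low in brm by construction.

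Among the 12 largest negative differences, 10 genes were also called lower in arp6 against WT (3.92% of all genes). In 7 of the 12 the double mutant was at the lowest fitted level, so no fold is given. For AT1G20390, AT5G36930, AT5G28919, AT4G08110, AT5G35935 and AT3G61010 the level in WT was between 2.1 and 3.74 log2 CPM and that in arp6 was -6.69 or lower. AT5G66052 was the exception, with levels of 3.59 in WT, 3.5 in arp6 and 4.28 in brm. Deletions in the arp6 genome were called by the authors and were not analysed here, so their part in these genes was not tested.

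AT2G32650, AT1G11280 and AT1G23130 had differences of -9.34, -6.88 and -6.59 and were called lower in arp6. QQS, an orphan gene that affects starch content, had levels of 3.11 log2 CPM in WT, -2.34 in arp6, 0.99 in brm and -5.48 in the double mutant. AT5G05600 was the one gene besides AT5G66052 among these 12 not called in arp6. Its level was 2.07 in WT, 1.61 in arp6, 5.72 in brm and -0.79 in the double mutant, a difference of -6.51 from high in brm to low in the double mutant.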

How the data were processed

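The authors' tables of edgeR comparisons of arp6, brm and arp6;brm with WT were used. The authors deposited log2 fold changes, average log2 CPM and p-values with Benjamini-Hochberg adjustment; per the submitters' processing notes, TopHat2, HTSeq, edgeR and the build TAIR10 were used, and strandedness is not given in the sources used here. Rows that name no gene held 69.3% of the CPM in the brm table and 70.7% in the arp6;brm table, and were removed. The design foresaw a count model if counts per library were given; none were, so no test was made. The tables hold no depth, so no interval is given. Differences and levels were computed with Python 3.11.15, pandas 2.3.3 and numpy 2.4.6 and checked on simulated data. Levels are the WT level of the brm table plus each deposited log2 fold change. Symbols came from RefSeq (TAIR10.1), which matched 13211 of 13217 genes. RefSeq start positions served only to order genes along each chromosome, and no sequences were used. Members, lists and thresholds were chosen with earlier results of these data known. Genes were named by rule: ARP6, BRM, and the 12 largest rises and falls called in at least 1 table. Further genes are list members at least 2-fold apart, above or below the minimum. Not all such members are named, and those named were picked with their values known. Others are marker genes, genes at the edge of the threshold, or genes chosen after their values were seen. H2A.Z peaks, nucleosome tables and arp6 deletions were not analysed here.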

Additional observations from a re-analysis of the deposited data

How the results depend on the processing

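Counts of higher and lower genes moved with the threshold, from 505 and 975 at 2-fold to 1828 and 2227 at 1.5-fold and 35 and 216 at 4-fold. They were 2471 and 2872 with no expression minimum, 178 and 363 with a minimum of 3, and 34 and 165 among genes with adjusted p under 0.05 in both tables, a choice made after seeing the data. The lower genes made up 65.9% of those past 2-fold, but 54.9% at 1.5-fold, 86.1% at 4-fold, 53.8% with no minimum and 82.9% when called in both tables. With the median subtracted the counts were 508 and 970, from group levels 446 and 1048, and without genes at the lowest fitted level 505 and 968, the last also chosen after seeing the data. Past 2-fold among genes called in neither table were 2.77%, and 0.87% where adjusted p was at least 0.2 in both. Genes higher both in arp6 and over brm numbered 41, and 180 at 1.5-fold, 3 at 4-fold and 7 with a minimum of 3; lower in both were 119, and 373, 31 and 31. At 1.5-fold, 7 salicylic acid genes were lower instead of 3, and 5 XTH genes higher instead of 3. The jasmonate count stayed at 18 of 18 at 1.5-fold and after centring. No paired analysis was possible because the tables hold no value per library, and leaving out replicates was not run for the same reason. Overlap with deletions and H2A.Z peaks was not run, since gene coordinates of the files' build were not used here.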

Other observations

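Genes were ordered along each chromosome after those outside the comparison were left out, so a next gene can lie beyond a skipped one. In that order the next gene was also at least 2-fold higher for 28 of 505 higher genes (5.54%, where 3.82% of all genes were higher) and also lower for 101 of 975 lower genes (10.4%, where 7.38% were lower). Runs of 3 or more numbered 11 among lower genes and 0 among higher genes, and the longest had 4 genes. On chromosome 1 a run of 4 included NRT1:2 and NRT1.7, nitrate transporter genes, with differences of -1.05 and -1.71. On chromosome 5 a run joined VSP2 and VSP1 with BZIP9 (-1.29) and AT5G24810 (-1.02). Another run on chromosome 5 held AT5G45480, AT5G45490, AT5G45500 and AT5G45510, with differences of -1.04, -4.95, -1.40 and -2.80. In the authors' deposited table the last 3 were called lower in arp6 as well, at -5.35, -1.59 and -2.28. Neighbours can be tandem copies that share reads, and this was not tested.

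Transcribed pseudogenes were lower in 8 of 24 cases and other pseudogenes in 7 of 42, compared with 953 of 13061 protein-coding genes (7.3%).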
